A study of Mus musculus with 6 samples.

Results

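The genes described here are 38 mouse genes of mitosis and the G2/M transition, taken from the 51826 gene rows of the deposited table by their symbols. They comprise mitotic cyclins and kinases, spindle checkpoint and kinetochore genes, the chromosomal passenger complex, kinesins, cytokinesis genes and the chromatin genes Mki67 and Top2a. Each symbol matched 1 gene ID, every gene is protein-coding in the GENCODE M21 annotation, and all 38 passed the filter on low counts. The RNA was that of mouse bone marrow neutrophils incubated with microvesicles, small membrane particles shed by Hepa1-6 cells, a mouse hepatoma line. In the KD_MV group (3 libraries) the Hepa1-6 donors had an ezrin knockdown, and in the Ctrl_MV group (3 libraries) they were wild type. The donors of both groups had been deprived of glucose. How ezrin was knocked down, the strain and age of the mice, the vesicle dose and the exposure time were not stated. Nothing in the labels ties the replicates to separate mice or cultures, and the p-values therefore measure only how these libraries vary, which may be technical.

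A cell that has copied its DNA enters mitosis when cyclin A and cyclin B activate the kinase Cdk1. Aurora and Polo kinases, motor proteins and the kinetochores then build the spindle, the spindle checkpoint holds the cell until every chromosome is attached, and the anaphase-promoting complex ends mitosis by marking cyclin B and securin for destruction. Transcripts of these genes accumulate in cycling cells. In the neutrophil lineage of the marrow, division belongs to the early precursors and stops before the band and segmented stages.

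The libraries held 38117403 to 42043434 counts in KD_MV and 37346055 to 38826701 in Ctrl_MV. Over all genes KD_MV library 3 stood apart, with a chi-square per degree of freedom of 97.8 against KD_MV library 1 and 93 against KD_MV library 2, where KD_MV libraries 1 and 2 gave 20.3 and pairs of Ctrl_MV libraries 23.7 to 37.1. Without KD_MV library 3 the counts among the 38 genes given below were 33 higher and 1 lower, with a median log2 fold change of 1.14. The labelled cell type was checked against its markers. S100a9 stood at 4580, 4400 and 2180 TPM (a length-scaled level set relative to the library) in KD_MV libraries 1, 2 and 3 and at 3140, 2720 and 3310 TPM in the Ctrl_MV libraries, whereas the surface marker Ly6g stood at 3.68 to 4.55 TPM in KD_MV libraries and 3.13 to 4.34 TPM in Ctrl_MV libraries, and the B-cell gene Cd79a at 541 to 584 TPM in KD_MV libraries and 171 to 223 TPM in Ctrl_MV libraries. Markers of several cell types were called in one direction more often than the 27.8% of all tested genes called higher or the 24.9% called lower. Erythroid markers were lower in KD_MV for 12 of 15 tested and higher for 0, with summed levels of 9360 to 10900 CPM (reads relative to the library total after TMM scaling) in KD_MV libraries and 107000 to 124000 CPM in Ctrl_MV libraries. For B-lineage markers 7 of 15 were higher and 4 lower (2060 to 2250 CPM in KD_MV, 1090 to 1340 CPM in Ctrl_MV), for neutrophil precursor markers 7 of 11 were higher and 1 lower (147 to 153 CPM in KD_MV, 107 to 129 CPM in Ctrl_MV), and for eosinophil markers 6 of 9 were higher and 0 lower (472 to 655 CPM in KD_MV, 30.3 to 33.1 CPM in Ctrl_MV). Mature neutrophil markers were lower for 7 of 14 and higher for 1 (6330 to 7890 CPM in KD_MV, 11500 to 12100 CPM in Ctrl_MV), but their summed TPM overlapped, at 13900 to 18500 in KD_MV and 17100 to 18500 in Ctrl_MV. Monocyte and macrophage markers were higher for 5 of 10 and lower for 2 (1990 to 2210 CPM in KD_MV, 2400 to 2520 CPM in Ctrl_MV), and their summed TPM ran the other way, at 2200 to 2880 in KD_MV and 1870 to 1920 in Ctrl_MV. Megakaryocyte markers were higher for 6 of 8 and lower for 1, with sums that overlapped in CPM (149 to 179 in KD_MV, 137 to 177 in Ctrl_MV) and lay apart in TPM (206 to 248 in KD_MV, 68.2 to 84.6 in Ctrl_MV). T and NK markers, higher for 3 of 10 and lower for 1 (83.5 to 97.7 CPM in KD_MV, 68.1 to 78.8 CPM in Ctrl_MV), were called about as often higher as all genes, and so were B-lineage markers in the lower direction. Hepatoma markers were lower for 5 of 6 tested and higher for 0 (10.6 to 15.4 CPM in KD_MV, 32.8 to 45.0 CPM in Ctrl_MV), with Serpina1a listed at 0 in every library. The part of these cell types in the results below was not tested, and in bulk RNA more cells of a type and more RNA per cell cannot be told apart.

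Most mitosis and G2/M genes were higher in neutrophil preparations given knockdown-donor vesicles. In edgeR's quasi-likelihood test 33 of the 38 genes were called higher in KD_MV, where 27.8% of all 16071 tested genes were called higher. One gene, Ube2c, was called lower, where 24.9% of all tested genes were. Cenpe, Cenpf, Prc1 and Mki67 did not pass an adjusted p of 0.05. In either direction 34 of the 38 genes were called, against 52.6% of all tested genes. Counts for groups of these genes by role, given below, stand against the same shares, and each group is small. The median log2 fold change of the 38 genes (KD_MV over Ctrl_MV throughout) was 1.24, and that of all tested genes was 0.03. Levels of the groups did not overlap for 34 of the 38 genes, where 61.3% of all tested genes had groups that did not overlap. A rise of more than 2-fold was called for 23 of the 38 genes, where 13.5% of all tested genes had one. The 38 genes summed to 933 to 1210 CPM in KD_MV libraries and 505 to 554 CPM in Ctrl_MV libraries. Of all calls in the series 52.8% were higher with TMM factors, 78.8% with library size only and 85.5% with limma on log2(TPM + 1), and the median over all tested genes was then 0.43 with library size only and 0.31 on the TPM scale. The count of mitotic genes called was then 35 higher and 1 lower with either scaling. Of all tested genes, 7455 of 16071 were called higher with library size only and 8569 of 19474 on the TPM scale. With TMM factors 4464 of 16071 were.

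**Figure D1:**
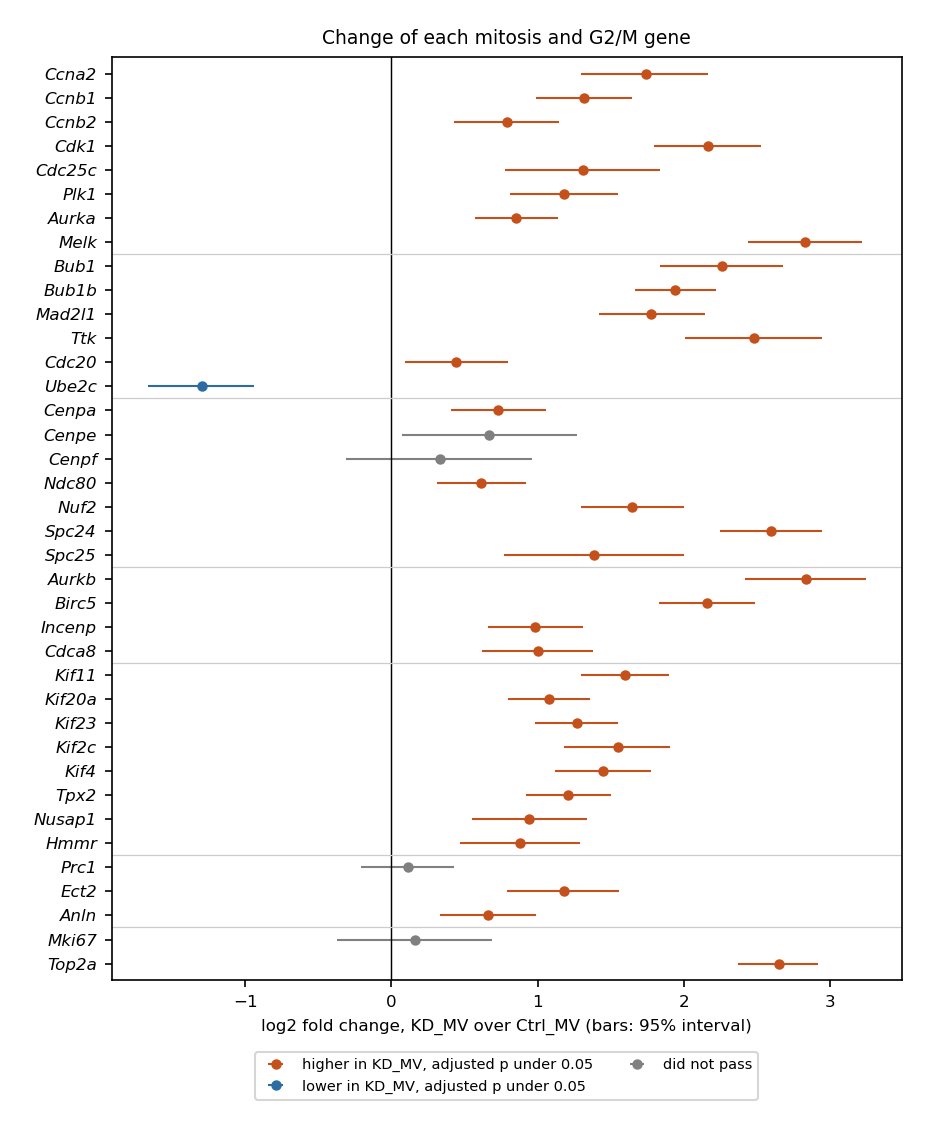
Log2 fold change of each of the 38 genes, KD_MV over Ctrl_MV, with its 95% interval from edgeR, ordered by role. Ube2c is the 1 gene to the left of 0 whose interval excludes it, and the intervals of Cenpf, Prc1 and Mki67 cross 0.

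Promoters of mitotic genes are known for a pair of elements, the CHR (cell cycle genes homology region), which the MuvB complex contacts either in the repressive DREAM complex or with the activators B-Myb and FoxM1, and the CCAAT box, which NF-Y binds. Windows from 250 bases before to 50 bases after the start site were available from RefSeq (GRCm38.p6) for 31 of the 38 genes and were searched on both strands for the CHR (TTTGAA or TTCGAA) and the CCAAT box (CCAAT). Ccna2, Incenp, Aurkb, Tpx2, Cdc25c, Kif20a and Spc24 were not in the table. A CHR was present in 24 of the 31 windows (77.4%), against 19.4% of 27025 windows over all genes (1 a gene). A CCAAT box was present in 23 (74.2%, against 37.9% of all windows), and both in 21 (67.7%, against 7.7%). For comparison, 8 of 40 windows of S-phase genes held a CHR. A CCAAT box was present in 24 of those 40 windows (60.0%), also above the 37.9% of all windows, so it was not particular to the mitotic genes. Letters matching the E2F element (TTTCCCGC, TTTGGCGC or TTTCGCGC) were found in 15 of those 40 windows (37.5%), in 1 of the 31 mitotic windows (Cdk1, 3.23%) and in 1.91% of all windows.

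The 6 genes with the highest mean TPM among those whose window held both elements are shown, from 150 bases before to 30 bases after the start. They include the gene that fell (Ube2c), 3 that rose (Top2a, Cdca8 and Cenpa) and 2 that did not pass (Mki67 and Prc1). Capitals mark CHR and CCAAT letters on either strand, and sequences run 5′ to 3′ on the strand of the gene. They lie at chr2:164769779-164769958 (plus strand) for Ube2c, chr11:99024160-99024339 (minus) for Top2a, chr7:135716350-135716529 (minus) for Mki67, chr4:124936888-124937067 (minus) for Cdca8, chr5:30666736-30666915 (plus) for Cenpa and chr7:80294301-80294480 (plus) for Prc1. In Cdca8 a CHR and a CCAAT box overlap, read on opposite strands.
Ube2c: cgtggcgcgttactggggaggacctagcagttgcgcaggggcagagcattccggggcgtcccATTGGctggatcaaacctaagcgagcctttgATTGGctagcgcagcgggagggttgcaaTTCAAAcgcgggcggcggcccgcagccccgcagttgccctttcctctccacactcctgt
Top2a: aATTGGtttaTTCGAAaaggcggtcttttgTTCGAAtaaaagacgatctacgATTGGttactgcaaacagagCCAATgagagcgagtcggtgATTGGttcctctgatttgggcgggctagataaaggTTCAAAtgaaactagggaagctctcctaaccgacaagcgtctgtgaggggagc
Mki67: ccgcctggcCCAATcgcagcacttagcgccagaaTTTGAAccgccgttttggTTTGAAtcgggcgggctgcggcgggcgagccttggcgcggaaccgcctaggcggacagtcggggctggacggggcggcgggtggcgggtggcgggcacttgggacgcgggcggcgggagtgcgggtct
Cdca8: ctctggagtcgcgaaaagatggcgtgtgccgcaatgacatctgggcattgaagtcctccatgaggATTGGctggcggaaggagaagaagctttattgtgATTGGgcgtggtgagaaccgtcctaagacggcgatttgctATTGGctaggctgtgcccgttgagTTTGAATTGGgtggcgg
Cenpa: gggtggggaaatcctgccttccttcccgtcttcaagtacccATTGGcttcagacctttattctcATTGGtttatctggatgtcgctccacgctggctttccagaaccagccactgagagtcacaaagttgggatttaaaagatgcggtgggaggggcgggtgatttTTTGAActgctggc
Prc1: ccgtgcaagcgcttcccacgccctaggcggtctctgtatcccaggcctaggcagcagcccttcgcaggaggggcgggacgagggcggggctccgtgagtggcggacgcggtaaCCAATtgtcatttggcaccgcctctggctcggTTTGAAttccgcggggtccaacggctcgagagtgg
Both elements were thus present in genes that rose, fell or did not pass. Most of the 21 genes with both were called higher. So were most genes whose window did not hold both, and 33 of all 38 genes, against 27.8% of all tested genes. Among the 31 windows, the 24 genes with a CHR had log2 fold changes of -1.30 to 2.65 (median 1.09) and the 7 without one had 0.67 to 2.83 (median 1.65).

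Every gene of the cyclin and kinase group rose. Cyclin A2, the S and G2 cyclin encoded by Ccna2, was measured at 46.1, 47 and 54.9 CPM in the KD_MV libraries, against 11.3, 13.8 and 19.3 CPM in the Ctrl_MV libraries (log2 fold change 1.74 ± 0.19 (SE), adjusted p = 0.000108). Ccnb1, the main mitotic cyclin, was measured at 23.1, 20.4 and 22 CPM in the KD_MV libraries, against 10.4, 7.87 and 7.99 CPM in the Ctrl_MV libraries (log2 fold change 1.32 ± 0.14 (SE), adjusted p = 0.000105). Ccnb2, its Golgi-associated relative, was measured at 13.1, 14.7 and 12.3 CPM in the KD_MV libraries, against 7.37, 6.57 and 9.21 CPM in the Ctrl_MV libraries (log2 fold change 0.79 ± 0.16 (SE), adjusted p = 0.00291). All KD_MV libraries lay above all Ctrl_MV libraries for the 3 cyclins, and the fold was largest for Ccna2. Their catalytic partner Cdk1 (chromosome 10, 69335146 to 69352938, mm10) reached 24.7, 30.2 and 23.1 CPM in the KD_MV libraries, against 4.92, 5.87 and 6.56 CPM in the Ctrl_MV libraries (log2 fold change 2.17 ± 0.16 (SE), adjusted p = 1.39e-05). For Cdc25c, the phosphatase that removes inhibitory phosphates from Cdk1, the levels were 2.87, 3.99 and 2.85 CPM in the KD_MV libraries, against 1.36, 1.06 and 1.49 CPM in the Ctrl_MV libraries (log2 fold change 1.31 ± 0.23 (SE), adjusted p = 0.00155). Cdc25c was the second-lowest member by mean TPM in KD_MV, at 3.25 ± 0.724 TPM (SD, n = 3), against 0.867 ± 0.151 TPM in Ctrl_MV (SD, n = 3). Plk1, the Polo-like kinase of mitotic entry and exit, had 15.6, 18.5 and 23.1 CPM in the KD_MV libraries, against 8.08, 8.08 and 9 CPM in the Ctrl_MV libraries (log2 fold change 1.18 ± 0.16 (SE), adjusted p = 0.000372). Aurka, the centrosomal Aurora kinase, had 17.5, 17.1 and 18.2 CPM in the KD_MV libraries, against 9.63, 8.69 and 10.9 CPM in the Ctrl_MV libraries (log2 fold change 0.85 ± 0.13 (SE), adjusted p = 0.000582). Melk, a maternal embryonic leucine zipper kinase of cycling cells (chromosome 4, 44300876 to 44364675), had 11.5, 12.9 and 14.3 CPM in the KD_MV libraries, against 1.8, 1.54 and 2.09 CPM in the Ctrl_MV libraries (log2 fold change 2.83 ± 0.17 (SE), adjusted p = 5.57e-06). Melk had the largest log2 fold change of this group, and its groups were far apart. Exons of Exosc9, Gm3550 and Gm44985 on the opposite strand cover 12.5% of the exonic bases of Ccna2, 12.7% of those of Cdc25c and 7.09% of those of Plk1, and pseudogene copies of Ccnb1 and Ccnb2 are annotated, so these counts are uncertain where the counting could split or merge reads.

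The 4 spindle checkpoint genes among the 38 rose, whereas Cdc20 rose little and Ube2c fell. Bub3, a checkpoint gene outside the 38 that was chosen after its values were seen, did not pass. It had 91.0, 100 and 78.4 CPM in the KD_MV libraries, against 75.9, 63.3 and 88.1 CPM in the Ctrl_MV libraries (log2 fold change 0.25 ± 0.14 (SE), edgeR adjusted p = 0.182). The checkpoint kinase gene Bub1 was found at 16.9, 18.5 and 20.8 CPM in the KD_MV libraries, against 2.91, 4.27 and 4.53 CPM in the Ctrl_MV libraries (log2 fold change 2.26 ± 0.19 (SE), adjusted p = 2.45e-05). Its relative Bub1b, which encodes BubR1, a part of the inhibitor of the anaphase-promoting complex, was found at 34.3, 33.7 and 36.9 CPM in the KD_MV libraries, against 9.29, 9.87 and 8.08 CPM in the Ctrl_MV libraries (log2 fold change 1.94 ± 0.12 (SE), adjusted p = 6.1e-06). Mad2l1, the Mad2 subunit of the same inhibitor, was found at 31.2, 30.1 and 38.5 CPM in the KD_MV libraries, against 7.96, 11.2 and 9.8 CPM in the Ctrl_MV libraries (log2 fold change 1.78 ± 0.16 (SE), adjusted p = 3.99e-05). Ttk, the Mps1 kinase that starts checkpoint signalling at kinetochores, was low in every library, at 5.92, 8.01 and 8.1 CPM in the KD_MV libraries, against 1.11, 1.3 and 1.52 CPM in the Ctrl_MV libraries (log2 fold change 2.48 ± 0.21 (SE), adjusted p = 2.59e-05). The groups stood well apart in each of these 4 genes. Cdc20, the coactivator that the checkpoint restrains, differed less, at 15.3, 17.5 and 12.7 CPM in the KD_MV libraries, against 11.7, 9.71 and 12.1 CPM in the Ctrl_MV libraries (log2 fold change 0.44 ± 0.16 (SE), adjusted p = 0.0394). The lowest KD_MV library of Cdc20 was close to the highest Ctrl_MV library, and the call was lost when KD_MV replicate 1 or 2 or any of the 3 Ctrl_MV libraries was left out (adjusted p = 0.0862, 0.147, 0.0743, 0.133 and 0.0555).

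Ube2c moved the other way. It encodes the ubiquitin-conjugating enzyme UbcH10, which primes substrates of the anaphase-promoting complex, and lies on chromosome 2 (164769898 to 164778822, mm10, plus strand). Its levels were 24.7, 24.1 and 34.4 CPM in the KD_MV libraries, against 61.4, 66.3 and 77.8 CPM in the Ctrl_MV libraries (log2 fold change -1.30 ± 0.16 (SE), adjusted p = 0.000214). Every KD_MV library was below every Ctrl_MV library, and leaving out any 1 library gave log2 fold changes between -1.5 and -1.20. On the length-scaled measure Ube2c was the second highest of the 38 genes in all KD_MV libraries and the highest in all Ctrl_MV libraries, at 47.0, 46.8 and 69.2 TPM in KD_MV libraries 1, 2 and 3, against 85.2, 89.7 and 103 TPM in Ctrl_MV libraries 1, 2 and 3. Ube2c accounted for 7.16, 6.28 and 8.71% of the summed TPM of the 38 genes in the KD_MV libraries, against 31.3, 33.7 and 35.0% in the Ctrl_MV libraries. Without Ube2c the other genes summed to 909 to 1170 CPM in KD_MV libraries and 438 to 483 CPM in Ctrl_MV libraries. Its fall went with that of the erythroid markers given above, and hemoglobin genes took 1.02 to 1.18% of counts in KD_MV libraries and 8.96 to 10.6% in Ctrl_MV libraries. The part of erythroid cells in this difference was not tested. With hemoglobin genes left out before scaling the log2 fold change of Ube2c was -1.31. That setting keeps any Ube2c reads of erythroid cells, so it does not test their part. The annotation places exons of Tnnc2 on the opposite strand over 22.8% of the exonic bases of Ube2c, and Tnnc2 itself had 0.302 to 0.35 TPM in KD_MV libraries and 0 to 0.217 TPM in Ctrl_MV libraries.

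**Figure D2:**
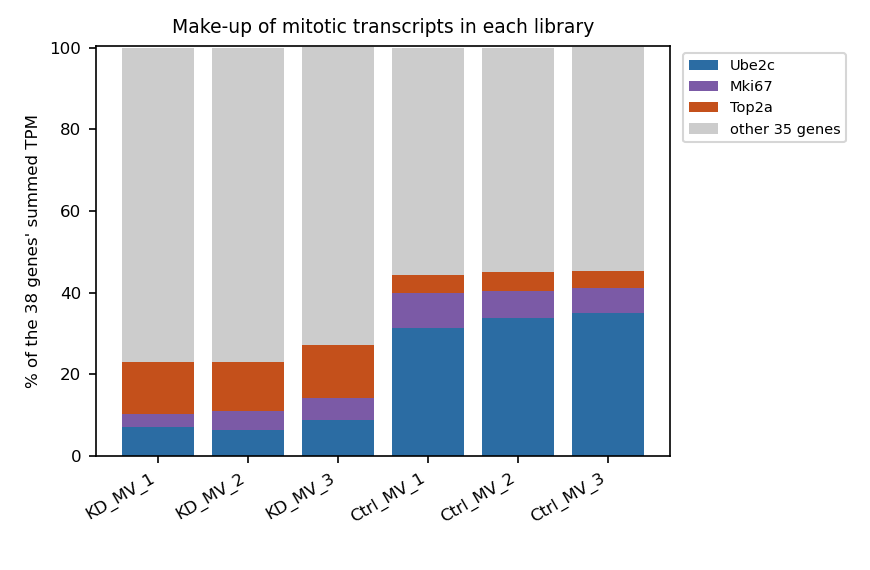
Share of the summed TPM of the 38 genes taken by Ube2c, Mki67, Top2a and the other 35 genes, 1 bar a library. Ube2c takes 6.28 to 8.71% in KD_MV libraries and 31.3 to 35.0% in Ctrl_MV libraries, and Top2a takes 12.2 to 13% in KD_MV libraries and 4.15 to 4.55% in Ctrl_MV libraries.

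Of the 7 centromere and kinetochore genes 5 rose and 2 did not pass. Cenpa, the histone H3 variant that marks centromeres, stood at 16.9, 17.9 and 16.5 CPM in the KD_MV libraries, against 9.07, 9.5 and 12.3 CPM in the Ctrl_MV libraries (log2 fold change 0.73 ± 0.14 (SE), adjusted p = 0.00267). Ndc80, Nuf2, Spc24 and Spc25 encode the subunits of the Ndc80 complex, which holds microtubules at the kinetochore, and all 4 rose, but by different amounts. Spc24 (chromosome 9, 21755442 to 21760303) stood at 11.4, 12.3 and 9.99 CPM in the KD_MV libraries, against 1.89, 1.91 and 1.76 CPM in the Ctrl_MV libraries (log2 fold change 2.60 ± 0.16 (SE), adjusted p = 4.99e-06). The other subunit of its globular end, Spc25, stood at 6.28, 10.4 and 13.5 CPM in the KD_MV libraries, against 3.65, 3.39 and 4.5 CPM in the Ctrl_MV libraries (log2 fold change 1.39 ± 0.27 (SE), adjusted p = 0.00256). Spc25 spread widely among KD_MV libraries, with the first lowest. Nuf2 stood at 12.8, 13.1 and 14.8 CPM in the KD_MV libraries, against 3.59, 4.69 and 4.62 CPM in the Ctrl_MV libraries (log2 fold change 1.65 ± 0.15 (SE), adjusted p = 4.44e-05). Its partner in the microtubule-binding end, Ndc80, stood at 9.82, 11.8 and 11.8 CPM in the KD_MV libraries, against 7.68, 7.11 and 7 CPM in the Ctrl_MV libraries (log2 fold change 0.61 ± 0.13 (SE), adjusted p = 0.00466). The 95% intervals of the log2 fold change were 2.25 to 2.95 for Spc24, 0.77 to 2.0 for Spc25, 1.30 to 2.0 for Nuf2 and 0.31 to 0.92 for Ndc80, and differences between genes were not tested.

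Cenpe, a kinetochore motor that aligns chromosomes, and Cenpf, a large coiled-coil protein of the outer kinetochore, did not pass. Cenpe was at 7.93, 16 and 16.9 CPM in the KD_MV libraries, against 9.04, 7.54 and 9.06 CPM in the Ctrl_MV libraries (log2 fold change 0.67 ± 0.26 (SE), adjusted p = 0.0582), with a 95% interval of 0.07 to 1.27. Cenpf was at 5.02, 11.1 and 10.6 CPM in the KD_MV libraries, against 7.83, 7.38 and 6.11 CPM in the Ctrl_MV libraries (log2 fold change 0.33 ± 0.28 (SE), adjusted p = 0.355), with a 95% interval of -0.31 to 0.96. In both genes KD_MV replicate 1 lay within or below the Ctrl_MV range while the other KD_MV libraries lay above it. Without KD_MV replicate 1 both were called higher, Cenpe at 0.94 (adjusted p = 0.00155) and Cenpf at 0.61 (adjusted p = 0.0173). Cenpe also passed with library size only (adjusted p = 0.00734), with DESeq2 (0.0298) and with limma on log2(TPM + 1) (0.0395).

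All 4 genes of the chromosomal passenger complex, which corrects faulty attachments and later directs cytokinesis, rose. Aurkb, its kinase (chromosome 11, 69045647 to 69051664), was present at 22.3, 24.7 and 19.6 CPM in the KD_MV libraries, against 2.45, 3.12 and 3.75 CPM in the Ctrl_MV libraries (log2 fold change 2.84 ± 0.18 (SE), adjusted p = 7.08e-06). Birc5, which encodes survivin, was present at 23.4, 24.6 and 23.5 CPM in the KD_MV libraries, against 4.86, 4.75 and 6.38 CPM in the Ctrl_MV libraries (log2 fold change 2.16 ± 0.15 (SE), adjusted p = 9.15e-06). Both had Ctrl_MV levels well under every KD_MV level, and the log2 fold change of Aurkb was the highest of the 38. The scaffold gene Incenp was present at 54.6, 64.7 and 80.4 CPM in the KD_MV libraries, against 34.5, 33.5 and 32.9 CPM in the Ctrl_MV libraries (log2 fold change 0.98 ± 0.14 (SE), adjusted p = 0.000501). The borealin gene Cdca8 was present at 22.9, 23.9 and 17.7 CPM in the KD_MV libraries, against 10.7, 9.02 and 12.5 CPM in the Ctrl_MV libraries (log2 fold change 1.0 ± 0.17 (SE), adjusted p = 0.00113). Incenp, at 40.3 ± 8.38 TPM in KD_MV and 13.7 ± 0.674 TPM in Ctrl_MV (SD, n = 3 each), had the highest mean of the 4 on the length-scaled measure in both groups, within the spread of Birc5 in KD_MV (39.2 ± 1.86 TPM, SD, n = 3). The kinase Aurkb had 27.4, 33.9 and 28.6 TPM in KD_MV libraries 1, 2 and 3, close to Cdca8 at 26.7, 29.2 and 22.3 TPM, whereas in Ctrl_MV it was the lowest of the 4 at 2.68 ± 0.335 TPM (SD, n = 3).

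Kinesin and spindle assembly genes all rose within a narrow range, by 0.88 to 1.60 on the log2 scale. Kif11, the motor that pushes spindle poles apart, gave 29.2, 31.6 and 36.9 CPM in the KD_MV libraries, against 10.4, 9.99 and 11.8 CPM in the Ctrl_MV libraries (log2 fold change 1.60 ± 0.13 (SE), adjusted p = 2.49e-05). Kif2c, a microtubule depolymerase that corrects attachments, gave 9.61, 10.6 and 9.11 CPM in the KD_MV libraries, against 3.9, 2.97 and 3.19 CPM in the Ctrl_MV libraries (log2 fold change 1.55 ± 0.16 (SE), adjusted p = 7.83e-05). Kif4, a chromokinesin, gave 12.5, 13.1 and 15.1 CPM in the KD_MV libraries, against 4.71, 5.54 and 4.62 CPM in the Ctrl_MV libraries (log2 fold change 1.45 ± 0.14 (SE), adjusted p = 6.29e-05). Groups were separate for these motors and for the pair that acts at the spindle midzone. Of that pair, Kif23, the centralspindlin motor, gave 14.9, 16.9 and 17.6 CPM in the KD_MV libraries, against 6.44, 7.02 and 7.09 CPM in the Ctrl_MV libraries (log2 fold change 1.27 ± 0.13 (SE), adjusted p = 6.62e-05). Kif20a, which carries the passenger complex to the midzone, gave 21, 18.4 and 22.6 CPM in the KD_MV libraries, against 9.38, 9.96 and 9.92 CPM in the Ctrl_MV libraries (log2 fold change 1.08 ± 0.12 (SE), adjusted p = 0.000132). Exons of Cdc23 on the opposite strand cover 29.3% of the exonic bases of Kif20a, and whether counting used the strand was not stated, so the count of Kif20a is uncertain. The same holds for Kif4, with Pdzd11 over 15.1% of its exonic bases and an annotated pseudogene copy. Tpx2, which activates Aurora A on the spindle, gave 27.3, 29 and 30.8 CPM in the KD_MV libraries, against 11.1, 12.4 and 14.2 CPM in the Ctrl_MV libraries (log2 fold change 1.21 ± 0.13 (SE), adjusted p = 8.92e-05). Nusap1, a microtubule-bundling protein of the spindle, gave 22, 23 and 32.2 CPM in the KD_MV libraries, against 12.1, 12.7 and 15.3 CPM in the Ctrl_MV libraries (log2 fold change 0.94 ± 0.17 (SE), adjusted p = 0.00186). Hmmr, a spindle protein first known as a hyaluronan receptor, gave 11.9, 12.8 and 15.5 CPM in the KD_MV libraries, against 6.25, 6.54 and 9.09 CPM in the Ctrl_MV libraries (log2 fold change 0.88 ± 0.18 (SE), adjusted p = 0.00345). Library 3 was the highest of the KD_MV libraries in Tpx2, Nusap1 and Hmmr, and no library of one group reached the other.

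Of the 3 cytokinesis genes 2 rose. Ect2, the exchange factor that activates RhoA at the cleavage furrow, was counted at 12.2, 13.1 and 15.3 CPM in the KD_MV libraries, against 5.45, 5.21 and 7.27 CPM in the Ctrl_MV libraries (log2 fold change 1.18 ± 0.17 (SE), adjusted p = 0.000502). Anln, the furrow scaffold anillin, was counted at 9.32, 8.81 and 9.49 CPM in the KD_MV libraries, against 6.69, 5.3 and 5.48 CPM in the Ctrl_MV libraries (log2 fold change 0.66 ± 0.14 (SE), adjusted p = 0.00451). Both pairs of groups were apart. Prc1, which crosslinks midzone microtubules, was counted at 17.8, 16.9 and 17 CPM in the KD_MV libraries, against 18.7, 13.3 and 16 CPM in the Ctrl_MV libraries (log2 fold change 0.11 ± 0.14 (SE), adjusted p = 0.545), with a 95% interval of -0.21 to 0.43, and its Ctrl_MV libraries lay on both sides of the KD_MV ones. Prc1 passed with library size only (0.51, adjusted p = 0.0118) and with limma on log2(TPM + 1) (0.48, adjusted p = 0.0211), the scalings under which the median of all genes was also higher. Exons of Rccd1 on the opposite strand cover 11.1% of the exonic bases of Prc1.

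Of the 2 chromatin genes Top2a rose and Mki67 did not pass. Top2a, the topoisomerase that untangles sister chromatids (chromosome 11, 98992943 to 99024189, minus strand), was measured in these libraries at 161, 172 and 204 CPM in the KD_MV libraries, against 30.6, 27.3 and 27.7 CPM in the Ctrl_MV libraries (log2 fold change 2.65 ± 0.12 (SE), adjusted p = 1.32e-06). The groups were far apart, and Top2a was the highest of the 38 genes in KD_MV on the length-scaled measure, at 92.9 ± 9.66 TPM, against 12.2 ± 0.0921 TPM in Ctrl_MV (SD, n = 3 each). Mki67, the coat protein of mitotic chromosomes that is used as a proliferation marker (chromosome 7, 135689784 to 135716361, minus strand), was measured at 108, 175 and 225 CPM in the KD_MV libraries, against 174, 138 and 141 CPM in the Ctrl_MV libraries (log2 fold change 0.16 ± 0.23 (SE), adjusted p = 0.588). Its 95% interval was -0.37 to 0.69. The KD_MV libraries of Mki67 ran from below the lowest Ctrl_MV library to above the highest, so that the spread of KD_MV (58.5 CPM SD, n = 3) was larger than the difference of the means, 169 CPM in KD_MV and 151 CPM in Ctrl_MV.

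**Figure D3:**
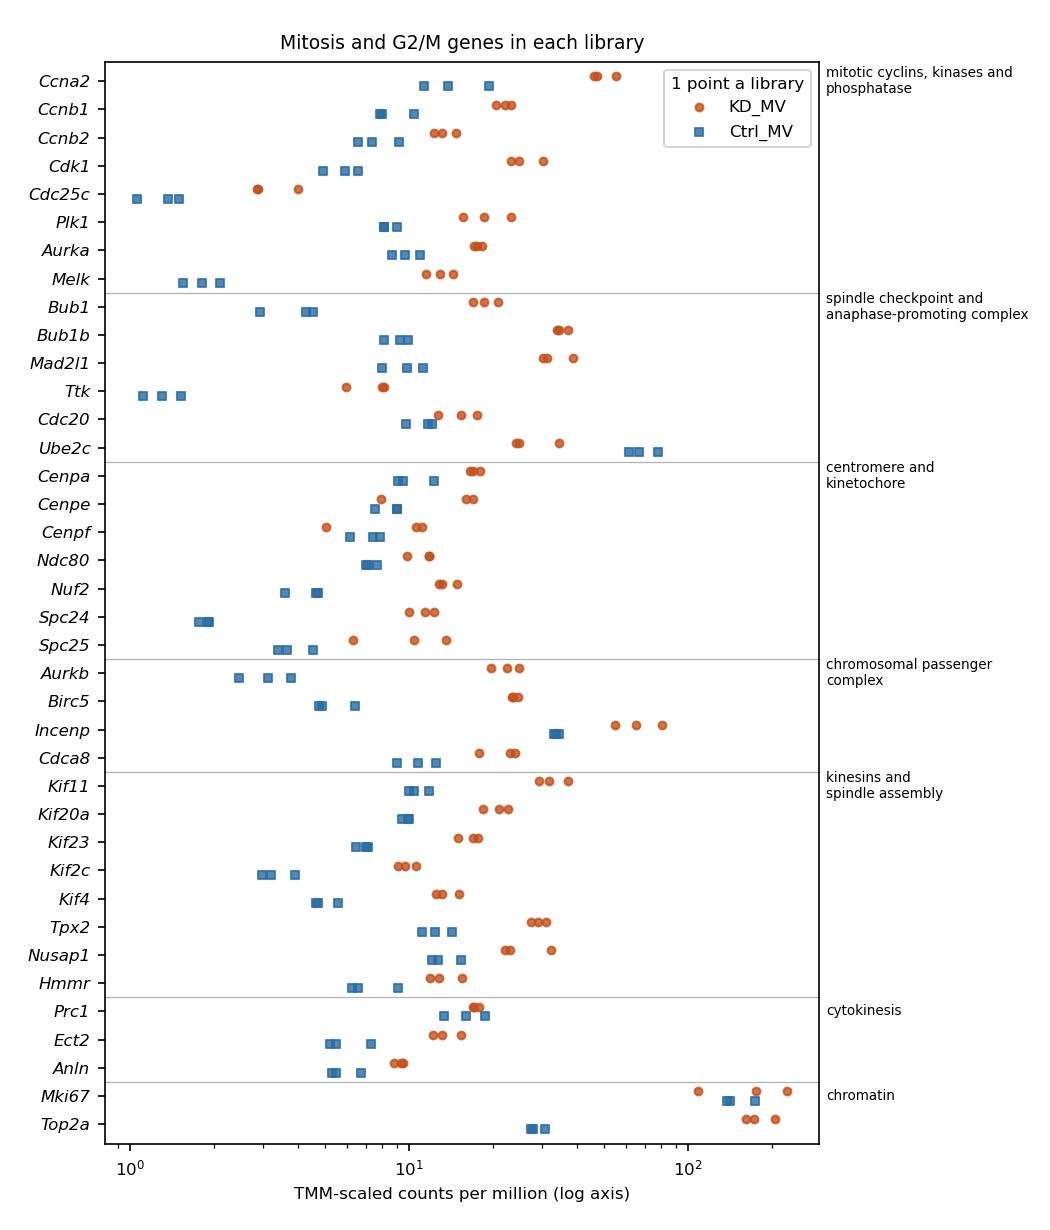
TMM-scaled CPM of the 38 genes in each library (log axis), KD_MV above Ctrl_MV within each gene and genes ordered by role. Points of the groups are separate in 34 genes, with Ube2c reversed, and overlap in Cenpe, Cenpf, Prc1 and Mki67.

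The 38 genes also differed among the KD_MV libraries, in which library 3 stood apart over all genes, as given above. KD_MV replicate 1 was the lowest of the 3 in 21 genes and the highest in 2, and KD_MV replicate 3 was the highest in 25. The matching shares over all tested genes were not computed, so these counts show nothing particular to the 38 genes. The widest gaps between KD_MV replicate 1 and the mean of the other KD_MV libraries were for Cenpf (-1.11 on the log2 scale), Cenpe (-1.05), Spc25 (-0.93) and Mki67 (-0.89), and the gaps of the other genes ran from -0.45 to 0.14. Cenpf, Mki67 and Cenpe have the longest annotated transcripts of the 38, at 11130, 10061 and 7910 bases, while Spc25 has 1869 bases and Mad2l1, at 7557 bases, had a gap of -0.14. Across the 38 genes the log2 length of the longest transcript and this gap had Pearson's r = -0.49 and Spearman's rho = -0.30, and across 16034 tested genes r = -0.22 and rho = -0.28, where genes share the libraries and their depth. Over all tested genes with transcripts over 8 kb the median gap was -0.15 (702 genes), against 0.09 for those under 2 kb (5025 genes). Whether transcript length had a part in the gaps of Mki67, Cenpe and Cenpf was not tested. Without KD_MV replicate 1, 34 of the 38 genes were called higher and 1 lower.

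**Figure D4:**
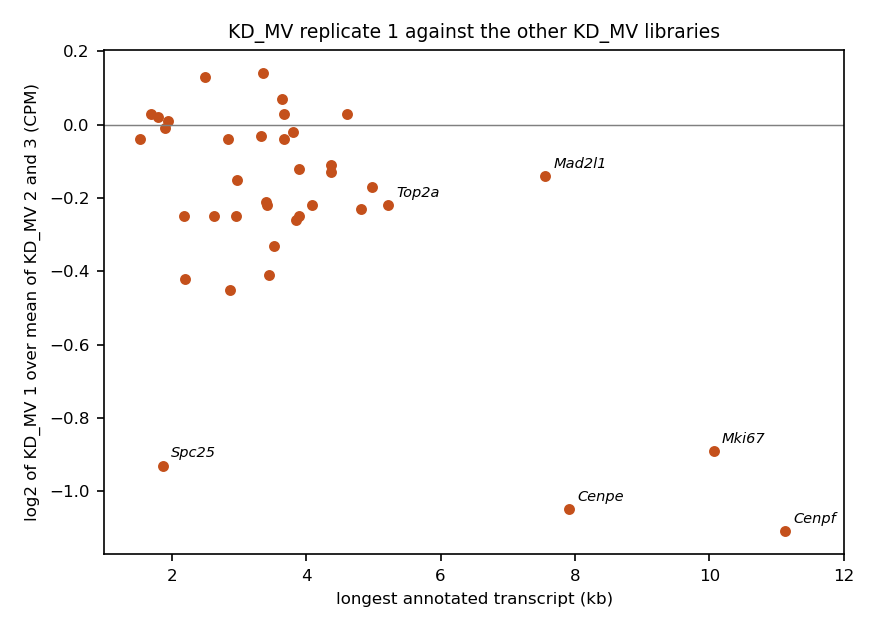
Gap between KD_MV replicate 1 and the mean of KD_MV replicates 2 and 3 (log2 ratio of CPM) against the length of the longest annotated transcript in kb, 1 point a gene. Cenpf, Cenpe, Spc25 and Mki67 lie between -1.11 and -0.89, and the other genes between -0.45 and 0.14.

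S-phase genes, which copy the DNA before mitosis, were set beside the mitotic genes. Of 50 genes on a replication and nucleotide synthesis list, 48 were called higher (96.0%, against 27.8% of all tested genes). On the same list 0 were called lower, against 24.9% of all tested genes. Their median log2 fold change was 2.44, and Tyms (0.02) and Dbf4 (0.01) did not pass. The replicative helicase subunit Mcm6 (3.70), the ligase Lig1 (4.10), the chromatin assembly subunit Chaf1a (4.16) and the methylation cofactor Uhrf1 (4.49) had the smallest p-values. A called rise of more than 4-fold was found for 33 of the 50 S-phase genes and for 8 of the 38 mitotic genes, where 3.36% of all tested genes had one. The highest log2 fold change was 4.86 on the S-phase list and 2.84 among the mitotic genes. Within each library the median TPM of the mitotic genes was 0.361, 0.41 and 0.407 of the median TPM of the S-phase genes in KD_MV libraries 1, 2 and 3, against 0.636, 0.7 and 0.652 in Ctrl_MV libraries 1, 2 and 3. These ratios did not overlap between the groups, and being taken within a library they do not depend on the scaling between libraries. The difference between the lists was not tested.

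**Figure D5:**
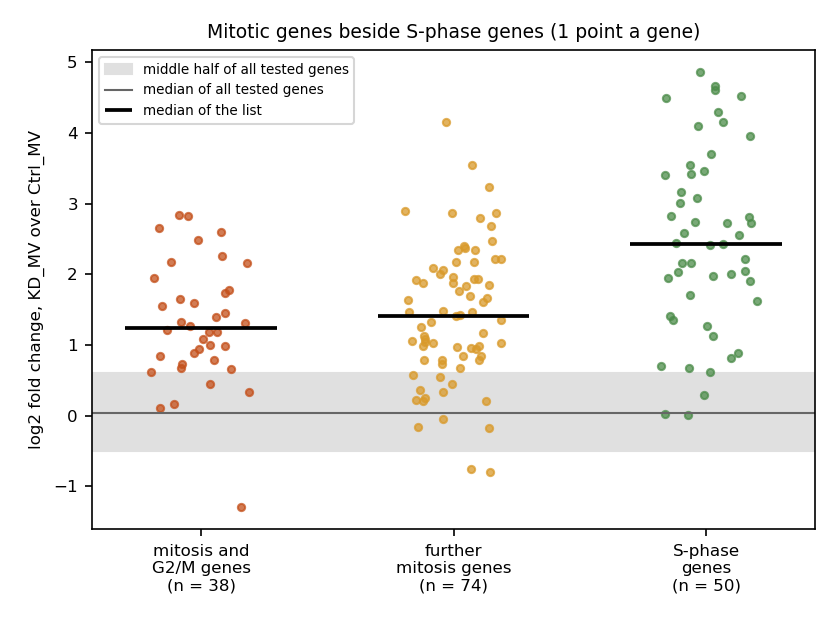
Log2 fold change, KD_MV over Ctrl_MV, of the 38 mitosis and G2/M genes, 74 further mitosis genes and 50 S-phase genes, 1 point a gene, with list medians as black bars. The medians are 1.24, 1.41 and 2.44, and the grey band spans the quartiles of all tested genes, -0.50 to 0.60.

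Most further mitosis genes outside the 38 were also higher in KD_MV. Of 78 listed, 74 were tested. Of these, 62 were called higher (83.8%, against 27.8% of all tested genes) and 2 lower (2.7%, against 24.9%). Their median log2 fold change was 1.41. The centromere gene Cenpm (3.23), the microtubule destabilizer Stmn1 (2.90) and the condensin genes Ncaph (2.34) and Ncapg (2.34) had the smallest p-values. The 2 that were called lower were Lmnb1 and Pttg1. Lmnb1, a nuclear lamina protein, had 123, 128 and 118 CPM in KD_MV libraries, against 194, 228 and 221 CPM in Ctrl_MV libraries (log2 fold change -0.80 ± 0.10 (SE), adjusted p = 0.000214). Pttg1, which encodes securin, a substrate of the anaphase-promoting complex, had 25.6, 24.3 and 23.1 CPM in KD_MV libraries, against 42.6, 27.3 and 53.5 CPM in Ctrl_MV libraries (log2 fold change -0.76 ± 0.21 (SE), adjusted p = 0.0161). The groups were apart in both, closely so in Pttg1, and the count called lower was 1 without Ctrl_MV replicate 1 and 1 without Ctrl_MV replicate 3.

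Of 17 genes of the anaphase-promoting complex and its regulators 10 were higher (58.8%, against 27.8% of all tested genes) and 2 lower (11.8%, against 24.9%), with a median of 0.40. Anapc5 (0.98), Cdc16 (0.75) and the inhibitor Fbxo5 (1.41), which encodes Emi1, rose. Anapc16, a small subunit, fell (-1.33), and so did Fzr1, the coactivator Cdh1 of late mitosis and G1 (-0.56), at 62.3, 68.8 and 60.0 CPM in KD_MV libraries and 91.6, 94.4 and 94.7 CPM in Ctrl_MV libraries. Ube2s, the enzyme that extends the ubiquitin chains Ube2c begins, was chosen after its values were seen. It had 68.4, 65.5 and 51.2 CPM in KD_MV libraries and 60.3, 62.6 and 63.8 CPM in Ctrl_MV libraries, a difference under the threshold (log2 fold change -0.01 ± 0.12 (SE), adjusted p = 0.936).

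Among genes that control G2/M transcription 7 of 16 were higher (43.8%, against 27.8% of all tested genes) and 3 lower (18.8%, against 24.9%), with a median of 0.26. Mybl2, which encodes the activator B-Myb, rose to 44.1, 47.8 and 50.8 CPM in KD_MV libraries, against 5.85, 6.72 and 5.18 CPM in Ctrl_MV libraries (log2 fold change 3.01 ± 0.14 (SE), adjusted p = 1.32e-06). Foxm1, its partner in G2, chosen after its values were seen, had 11.7, 14.2 and 14.7 CPM in KD_MV libraries and 3.44, 1.09 and 4.47 CPM in Ctrl_MV libraries (log2 fold change 2.17 ± 0.39 (SE), adjusted p = 0.00175). Both activators were higher in every KD_MV library than in any Ctrl_MV library. The E2F partner Tfdp1 (1.93) and the pocket protein p107, encoded by Rbl1 (0.86), rose, whereas Tfdp2 (-1.42) and the NF-Y subunit Nfyc (-0.80) fell.

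Of 15 genes that control entry into mitosis 7 were higher (46.7%, against 27.8% of all tested genes) and 3 lower, a share near the 24.9% of all tested genes, with a median of 0.32. The kinases Wee1 (2.20) and Chek1 (2.08), which hold Cdk1 back, rose along with the phosphatase Cdc25a (2.31), which releases it. Gadd45a (-2.45) and the CDK inhibitor Cdkn1a (-1.10), both stress-induced genes of growth arrest, fell, Cdkn1a to 139, 141 and 147 CPM in KD_MV libraries, against 282, 295 and 341 CPM in Ctrl_MV libraries.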

How the data were processed

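RNA from 6 libraries, 3 KD_MV and 3 Ctrl_MV, was prepared with a stranded mRNA kit, per the labels' protocols. Trim Galore, Subread and featureCounts and the build mm10 are named in the submitters' processing notes, whereas versions, annotation and strand setting were not stated. The authors deposited TPM values and whole-number read counts per gene, and the counts were used for all tests but limma on log2(TPM + 1). TPM values were used for that test, for levels between genes within a library and for some levels set between groups. On the TPM scale the median log2 fold change of all tested genes was 0.31, against 0.03 in the main fit. The deposited FPKM values were not used. Of counts from 1 to 20, 55.5 to 57.9% were even, and counts halved and rounded were tried. Deposited TPM per count was divided by its median over the 38 genes in each library. It still varied between libraries, by a median of 1.11 times over the 38 genes and by 1.59 times at most (Cenpf).

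Genes were filtered with filterByExpr (minimum count 10, total 15), scaled with TMM and tested with edgeR 4.0.16 in R 4.3.3 by the two-sided quasi-likelihood test with Benjamini-Hochberg adjustment over all 16071 tested genes (threshold 0.05). Standard errors were derived from each fold change and its F statistic. The procedure was tested on simulated data in which few genes changed, whereas 52.6% of all tested genes were called here. That test does not show how the procedure behaves with changes this broad. Totals were 37346055 to 42043434 counts. Libraries of a group differed by more than counting error (chi-square per degree of freedom 20.3 to 97.8), and the 95% intervals come from the fit and hold this spread. Tested alternatives, 20 in all, covered scaling, filters, thresholds, DESeq2 1.42.0, limma 3.58.1, a replicate block and each library left out. Positions follow GENCODE M21 (mm10) and promoters RefSeq GRCm38.p6.

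All 38 genes were named, with 4 genes of the smallest p and 2 called the opposite way per other pathway list, and marker lists given by sums. The 38 genes and all lists were chosen with earlier results of these data known. Ly6g, S100a9 and Cd79a were chosen as checks of the labelled cell type. Haspin, Pimreg, Sgo1, Sgo2a and Ahsp matched no row and were not analysed here.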

Additional observations from a re-analysis of the deposited data

How the results depend on the processing

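Across the 20 alternatives, 736 of the values for single genes among the 38 kept their direction and their side of the threshold, 14 lost the call, 8 gained it and 2 reversed. The 2 reversals were Prc1 at -0.01 without Ctrl_MV replicate 2 and Mki67 at -0.10 without KD_MV replicate 3, neither of them called, with ranges over the left-out libraries of -0.01 to 0.24 for Prc1 and -0.10 to 0.40 for Mki67. Of the 38 genes, those called higher numbered 27 with a fold threshold of 1.5, 32 with no filter or an adjusted p of 0.01, 34 with DESeq2 and 35 with library size only or limma on log2(TPM + 1). All tested genes called higher numbered 2180 of 16071 with the fold threshold and 4285 of 29157 with no filter. They numbered 3189 of 16071 with an adjusted p of 0.01 and 4289 of 16071 with DESeq2. With library size only they numbered 7455 of 16071, and with limma on log2(TPM + 1) 8569 of 19474. All genes called in either direction numbered 3885 with the fold threshold of 1.5, which asks for a larger change. Further mitosis genes called lower numbered 1 with library size only, no filter, an adjusted p of 0.01 or the fold threshold, and 0 on the TPM scale with limma, and the cause was not tested. With each library left out in turn, all genes called ranged from 7290 to 8710, the 38 genes called higher from 32 to 34 and lower from 1 to 1, S-phase genes higher from 47 to 48 and lower from 0 to 0, and further mitosis genes higher from 58 to 62 and lower from 1 to 3.

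With the replicate block, 7799 genes were called, with 32 of the 38 higher and 1 lower, 47 S-phase genes higher and 0 lower, and 62 further mitosis genes higher and 2 lower. Deviations of same-numbered libraries correlated at -0.00668, -0.0788 and -0.0538, so the numbers were not taken to pair the libraries. Among the 38 genes the call of Cdc20 was lost with the block (0.44, adjusted p = 0.0799).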

Other observations

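None of the tested genes nearest to Ube2c on chromosome 2 was called lower in KD_MV, where 24.9% of all tested genes were. For so few genes, none called lower is near that share, and nothing about the region follows from it. Dnttip1, which ends 1291 bases before it, had a log2 fold change of -0.31 (edgeR, adjusted p = 0.0556), and Acot8 had -0.02 (adjusted p = 0.929). Snx21 had 0.48 (adjusted p = 0.074), and Zswim3 was called higher at 0.68 (adjusted p = 0.00554). Wfdc3 had -0.61 (adjusted p = 0.44). These neighbours were chosen by position after the value of Ube2c was seen.

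Across the 38 genes the log2 mean TPM in Ctrl_MV and the log2 fold change had Pearson's r = -0.55 and Spearman's rho = -0.40, as a description over genes that share libraries and with the Ctrl_MV level entering both quantities.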
